A study of Zea mays with 6 samples.

Results

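Expansins are small proteins of the plant cell wall, and 3 of their genes in maize leaf tissue are described here: the alpha-expansin genes expa1 (NCBI gene 541904) and expA4 (NCBI gene 541906) and the beta-expansin gene expB6 (NCBI gene 542566). They were taken by symbol or RefSeq synonym from the probe sets that pair with exactly 1 gene, which gave 5 probe sets among the 1452 that pair with 1 of 1108 genes. The other 9 genes named expa or expb plus a number serve as family background, with 12 probe sets. After 3 weeks at 15 °C and 1 week at 25 °C, leaf 3 of the inbred line A661 lacked chlorophyll in its distal section (CL) and held it in its proximal section (CC), which served as control. The 2 cm of each section nearest the transition were collected in 3 biological replicates, and each RNA was read on a single-colour Affymetrix maize array. All 6 samples share the line, the leaf, both temperature periods and the light regime (228 µmol m⁻² s⁻¹, 14 h light and 10 h dark). The CL section was always the distal one, so position along the leaf and chlorophyll cannot be told apart, and nothing in the labels says whether a CL and a CC sample came from the same leaf.

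Expansins loosen the wall at low pH without cutting its polymers, which lets turgor stretch the cell. Alpha-expansins act on the cellulose and xyloglucan network, whereas the beta-expansin branch is large in grasses and includes the pollen allergens of that family. In a grass leaf, cells divide and elongate near the base and are displaced towards the tip, so distal tissue is the older one.

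Each array gave 17555 log2 values that the authors had made with RMA. Arrays of a section correlated at 0.989 to 0.995 (Pearson, across probe sets) and arrays of different sections at 0.963 to 0.982. Tests are from limma, CL minus CC, with Benjamini-Hochberg adjusted p over all probe sets and a threshold of 0.05. A gene with several probe sets stands by the brightest, the one with the highest mean over all arrays. By this test 31.1% of all probe sets were called (15.9% higher and 15.2% lower in CL), and among the 1108 genes 38.6% were called, made up of 18.7% that rose and 19.9% that fell. The first of these shares was 13.6% without CL replicate 3, 17.3% without CC replicate 2, 18.9% without CL replicate 2 and 19.9% without CC replicate 3. The dim end of the arrays leaned one way: among the 4389 dimmest probe sets by mean, 404 fell and 76 rose, and the median difference was -0.11. Scanner files were not used here, so detection above background was not tested, and precision is limited by the small number of arrays.

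The alpha-expansin gene expa1 fell in CL by the largest amount of the 12 expansin genes. Its single probe set read 3.82, 3.60 and 4.01 on the log2 scale on the CL arrays, against 6.69, 6.44 and 6.41 on the CC arrays. All CL arrays lay more than 2 log2 units below all CC arrays, and the arrays of a section stayed close together. The CL mean was 3.81 ± 0.21, against a CC mean of 6.51 ± 0.15 (SD, n = 3 each). The log2 difference was -2.71 (SE 0.13, 95% interval -3.02 to -2.39, limma adjusted p = 0.000393), which is a 6.52-fold lower level in CL (95% interval 5.25 to 8.11). Among all 17555 probe sets this was the 22nd largest fall. The CL mean stood at the 23.0th percentile of probe set means in that section and the CC mean at the 52.4th in the other, so the CL level reaches into the dim end, where RMA compresses differences. In bulk tissue, fewer cells of a type that expresses the gene and less RNA per cell cannot be told apart.

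The beta-expansin gene expB6 fell as well. Its single probe set read 5.07, 4.87 and 4.48 on the CL arrays, against 7.17, 7.24 and 6.73 on the CC arrays, all log2 values. The sections did not overlap, and the third replicate was the lowest of its section in both. The CL mean was 4.81 ± 0.30, against a CC mean of 7.05 ± 0.27 (SD, n = 3 each), a wider spread within a section than that of expa1. The log2 difference was -2.24 (SE 0.19, 95% interval -2.69 to -1.79, limma adjusted p = 0.00159), a 4.73-fold lower level in CL (95% interval 3.45 to 6.47) and the 47th largest fall of all probe sets. With any single array left out, the difference lay between -2.40 and -2.08 for expB6 and between -2.80 and -2.60 for expa1, and the limma adjusted p was at most 0.00851 and 0.00312.

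The second alpha-expansin, expA4, moved the other way on 1 of its 3 probe sets. The brightest read 5.54, 5.55 and 5.43 on the CL arrays, against 5.07, 4.91 and 5.18 on the CC arrays, on the log2 scale. All CL arrays lay above all CC arrays, by a small step. The difference was 0.46 (SE 0.10, 95% interval 0.22 to 0.69, limma adjusted p = 0.015), a 1.37-fold higher level in CL (95% interval 1.17 to 1.61). The rise ranked 2472nd among all probe sets.

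That call of expA4 did not hold in every alternative. It missed the threshold without CL replicate 2 (limma adjusted p = 0.0506) and without CC replicate 2 (0.0529). The other probe sets of the gene gave no rise: the second read 2.88, 2.84 and 2.90 in CL, against 2.91, 2.79 and 2.97 in CC, and the third 2.76, 2.53 and 2.74 in CL, against 2.72, 2.95 and 2.995 in CC. In both the sections overlapped, so 3 of the 5 probe sets of expa1, expB6 and expA4 were without overlap, beside 49.6% of all probe sets. The log2 differences of -0.02 (95% interval -0.22 to 0.18) and -0.21 (95% interval -0.48 to 0.06) did not pass, with limma adjusted p of 0.891 and 0.190. Both lay near the bottom of the arrays, at the 8.28th and 6.67th percentile of probe set means. The mean of the 3 probe sets changed by 0.08 (SE 0.08, limma adjusted p = 0.482 over all genes). The platform annotation gives the name expA4 to a gene ID that the RefSeq table does not list, and that table gives the same name to another ID, so which locus the probe sets read was not settled here.

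**Figure D1:**
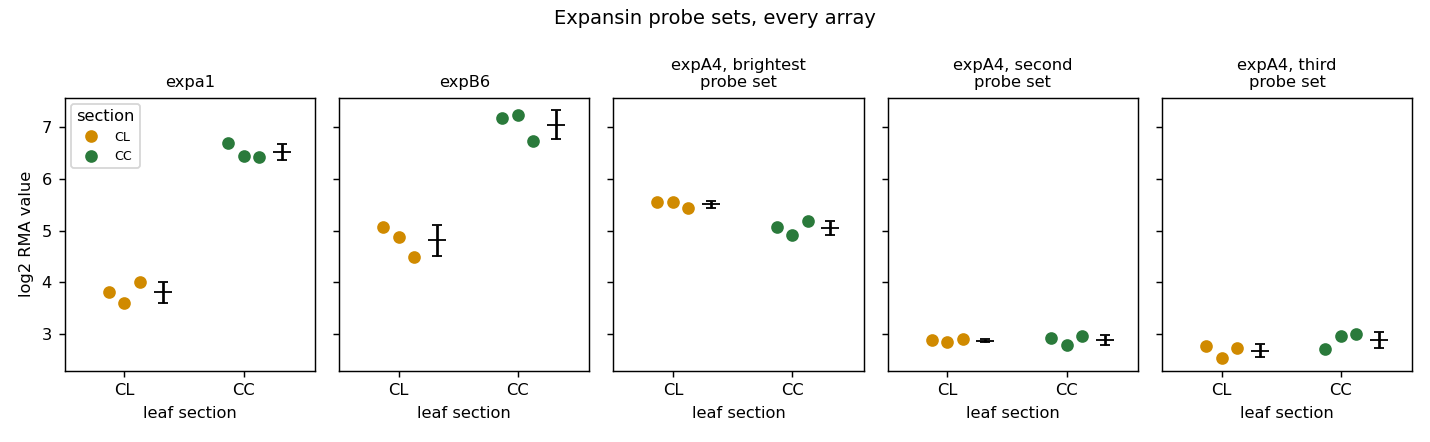
Log2 RMA values of the 5 probe sets of expa1, expB6 and expA4 on every array, CL at the left and CC at the right of each panel; points are arrays in order of replicate number and the bars give mean and SD (n = 3). The CL arrays of expa1 (3.60 to 4.01) and expB6 (4.48 to 5.07) lie far below their CC arrays, the brightest expA4 probe set is slightly higher in CL, and its other probe sets overlap.

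Whether the genes changed by different amounts was asked on the log2 differences between them within each array, in 3 pairs. For expa1 minus expA4 these were -1.72, -1.96 and -1.43 on the CL arrays, against 1.62, 1.53 and 1.23 on the CC arrays. The values did not overlap, and the shift between sections was -3.16. For expB6 minus expA4 they were -0.47, -0.68 and -0.95 in CL, against 2.10, 2.33 and 1.55 in CC, a shift of -2.70, again without overlap. Both shifts gave an exact two-sided permutation p of 0.1, the smallest that 3 arrays against 3 allow, and 0.15 after adjustment over the 3 pairs, so neither could pass. For expa1 minus expB6 the differences were -1.25, -1.27 and -0.48 in CL, against -0.49, -0.80 and -0.32 in CC. Those ranges overlapped, with a shift of -0.47 and an exact permutation p of 0.3 (0.3 adjusted), which does not show that the changes were equal. That overlap rests on CL replicate 3: without it the shift was -0.73, the ranges did not overlap and the exact permutation p was 0.1.

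Over the whole family, 5 of 12 expansin genes fell and 1 rose, that is 41.7% and 8.33% beside 19.9% and 18.7% of all genes. The median log2 difference was -0.45 for the family and -0.08 for all genes, and 11 of the 12 differences were negative, as were 58.0% of those of all genes. The sections did not overlap in 9 of the 12, against 55.8% of all genes. Under a further quantile normalization, without CL replicate 3 and without CC replicate 3, 10 of the 12 differences were negative. Without CC replicate 1 the count of falls was 8, and without CL replicate 2 or CC replicate 2 the count of rises was 0. By their brightest probe sets the 12 genes sit low on the arrays, between the 12.5th and the 45.9th percentile of probe set means. The lean towards falls given above is that of the 4389 dimmest probe sets, of which 9.20% fell. Between the 25th and the 50th percentile 18.0% of probe sets fell, with 790 falls and 552 rises. Differences of either size were negative in 3326 of the 4389 dimmest probe sets. They were negative in 2658 of the 4389 between the 25th and the 50th percentile. The part of signal level in the family count was not tested.

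Among the other alpha-expansins, EXPA5 fell. It read 4.04, 4.10 and 4.29 in CL, against 4.69, 5.17 and 5.39 in CC, with a log2 difference of -0.94 (SE 0.18, limma adjusted p = 0.0109). The sections did not overlap, and CC replicate 1 lay nearest to CL. The genes expa2 (log2 difference -0.17, 95% interval -0.44 to 0.09) and expA3 (-0.04, 95% interval -0.35 to 0.28) did not pass, and their sections overlapped. The direction of expA3 turned under a further quantile normalization (0.08), without CL replicate 3 (0.05) and without CC replicate 3 (0.02). So the alpha branch held 2 genes that fell, 1 whose brightest probe set rose and 2 that did not pass. Of all 1108 genes, 19.9% fell and 18.7% rose.

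Among the other 6 beta-expansins, 2 fell and 0 rose by limma, beside 19.9% and 18.7% of all genes. At an unadjusted p under 0.05, 5 fell and 0 rose, beside 318 and 260 of all 1108 genes. The gene expB4 read 3.64, 3.62 and 3.73 in CL, against 4.94, 4.35 and 4.30 in CC, and changed by -0.87 (SE 0.17, limma adjusted p = 0.012). For expB3 the values were 3.81, 3.68 and 3.71 in CL, against 4.10, 4.18 and 4.24 in CC, a log2 difference of -0.44 (SE 0.08) with a limma adjusted p of 0.0105, which was 0.0519 when CL replicate 3 was left out. In neither gene did the sections overlap, and CC replicate 1 was the highest array of expB4 but the lowest CC array of expB3. The pollen-type EXPB9, listed in RefSeq also as EXPB1B, lay at the 12.5th percentile of probe set means, the lowest of the family by brightest probe set. It read 3.02 to 3.23 in CL against 3.12 to 3.48 in CC. Its sections overlapped.

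Some beta-expansin genes are near neighbours in the RefSeq annotation of the B73 genome, another maize line. On 1 chromosome, expB2, expB7 and expB6 follow each other with 3 and 5 other genes between them, and on another expB8 and expB5 have 1 gene between them. The neighbour of expB6 moved less: expB7 read 4.29, 4.27 and 4.36 in CL, against 4.43, 5.001 and 5.11 in CC, a log2 difference of -0.54 (95% interval -0.96 to -0.12) with a limma adjusted p of 0.0582. Without CC replicate 1, its array nearest to CL, that p was 0.00571, and the difference was -0.75. With any other single array left out, expB7 did not pass, with limma adjusted p of 0.113 to 0.164. The difference between expB6 and expB7 was not tested. No probe set here pairs with expB2.

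The neighbours expB8 and expB5 gave values close to each other. The brightest of 3 probe sets of expB8 differed by -0.42 (limma adjusted p = 0.0502) and the brighter of 2 probe sets of expB5 by -0.46 (limma adjusted p = 0.0515). Both were without overlap, and both passed without CC replicate 1, with limma adjusted p of 0.0229 and 0.0215. With any other single array left out neither passed. The limma adjusted p was then 0.0883 to 0.129 for expB8 and 0.0794 to 0.134 for expB5. The 3 CL arrays of expB5 read 4.43, 4.42 and 4.42, against 4.63, 4.82 and 5.19 in CC. The dimmer probe sets of both genes did not pass, with log2 differences of -0.23, -0.11 and -0.08. Probe sets of closely related genes can share targets, and no probe sequence was used here to test that.

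**Figure D2:**
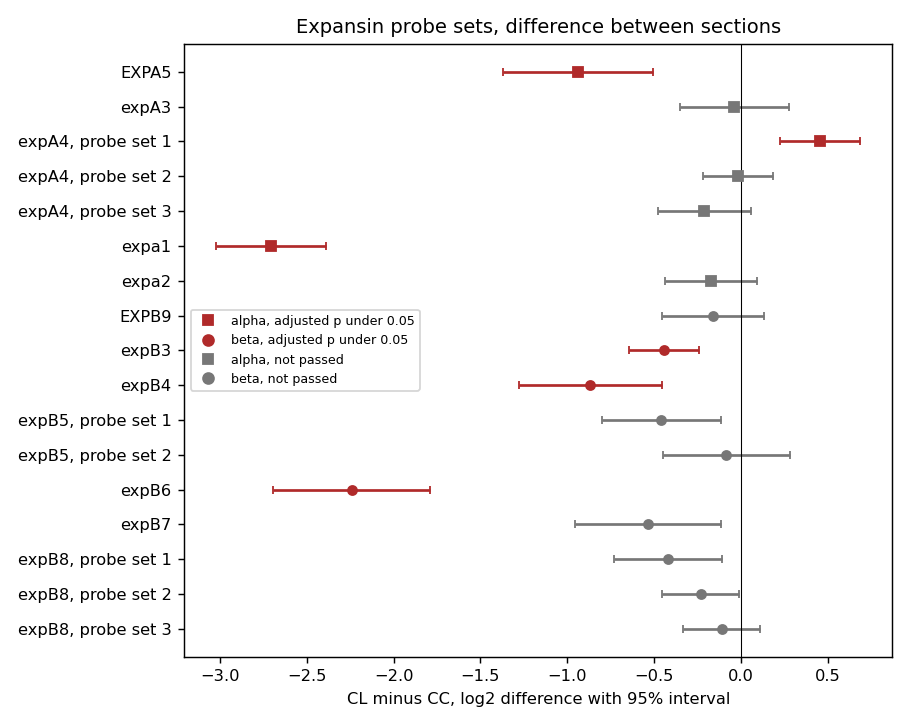
Log2 difference, CL minus CC, of the 17 expansin probe sets with limma's 95% interval; squares are alpha-expansins, circles beta-expansins, and red marks an adjusted p under 0.05. The intervals of expa1 (-3.02 to -2.39) and expB6 (-2.69 to -1.79) lie apart from those of the other expansins, and the brightest expA4 probe set has the only interval wholly above 0.

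**Figure D3:**
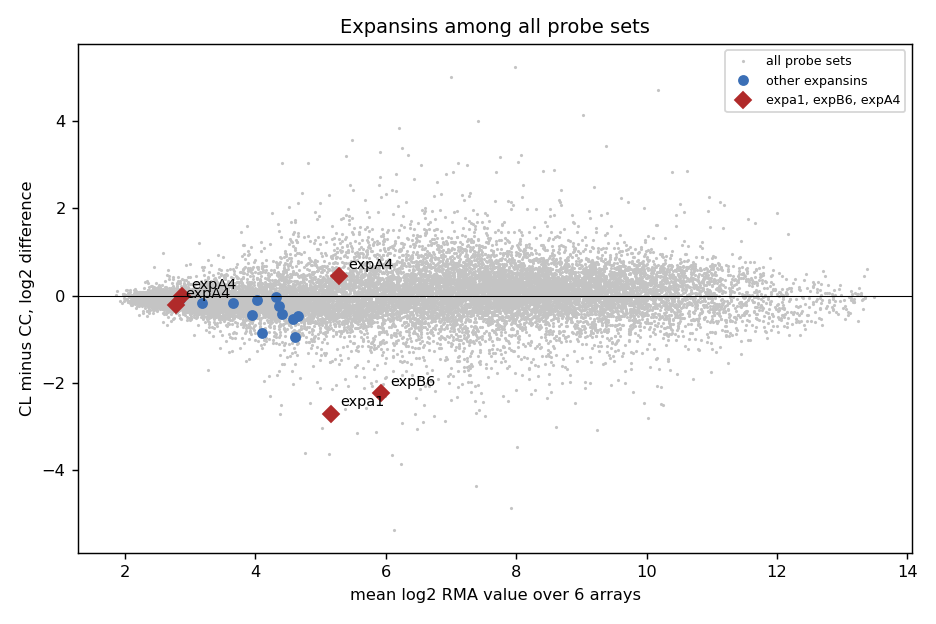
Log2 difference, CL minus CC, of all 17555 probe sets (grey) against their mean log2 RMA value over 6 arrays, with the expansins on top. The differences narrow towards the dim end; the other expansins (blue) lie among the dim probe sets with differences of -0.94 to -0.04, while expa1 and expB6 lie at the lower edge of the cloud.

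To see which genes behaved most alike, profiles were centred on their own mean over the 6 arrays and compared by the root mean square of their differences, over 977 other genes with an informative name. The measure is in log2 units and is mostly set by the size of the step between sections, so it is given as a description. Nearest to expa1 was CesA-2, a cellulose synthase, at 0.34, and next came expB6 at 0.38. They were followed by plt2 at 0.38, the cellulose synthase gene CesA-7 at 0.40 and glk1, a Golden2-like transcription factor of chloroplast development, at 0.42. CesA-2 read 6.04, 5.78 and 5.98 in CL, against 8.73, 7.63 and 8.39 in CC. In CesA-2 and in expa1, CC replicate 1 was the highest array and CL replicate 2 the lowest.

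The profiles nearest to expB6 were those of CesA-7 at 0.30, the cytokinin oxidase gene cko3 at 0.30, the profilin gene prf1 at 0.31, glk1 at 0.36 and the silicon channel gene Lsi1 at 0.36. CesA-7 read 8.03, 7.72 and 7.77 in CL, against 9.98, 9.58 and 9.89 in CC. By the same measure expa1 was the 9th nearest to expB6, and both had CesA-7 and glk1 among their nearest 5. Once each section's mean was taken out, expB6 and expa1 differed by 0.30, CesA-7 and expa1 by 0.17 and expA4 and expa1 by 0.19. These values also depend on the spread within a section, which was wider in expB6 than in expa1. They do not show by themselves which genes deviated alike.

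Near expA4 lay genes with small rises. They were orp2, a tryptophan synthase beta gene, at 0.06, the ethylene receptor gene etr2 at 0.10, the heat shock factor gene hsfb at 0.10, the derlin gene der2 at 0.10 and the annexin gene Ann7 at 0.10, with log2 differences of 0.38 to 0.56. In the ranking from expA4, expB6 stood at place 963 and expa1 at place 970 of 977.

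**Figure D4:**
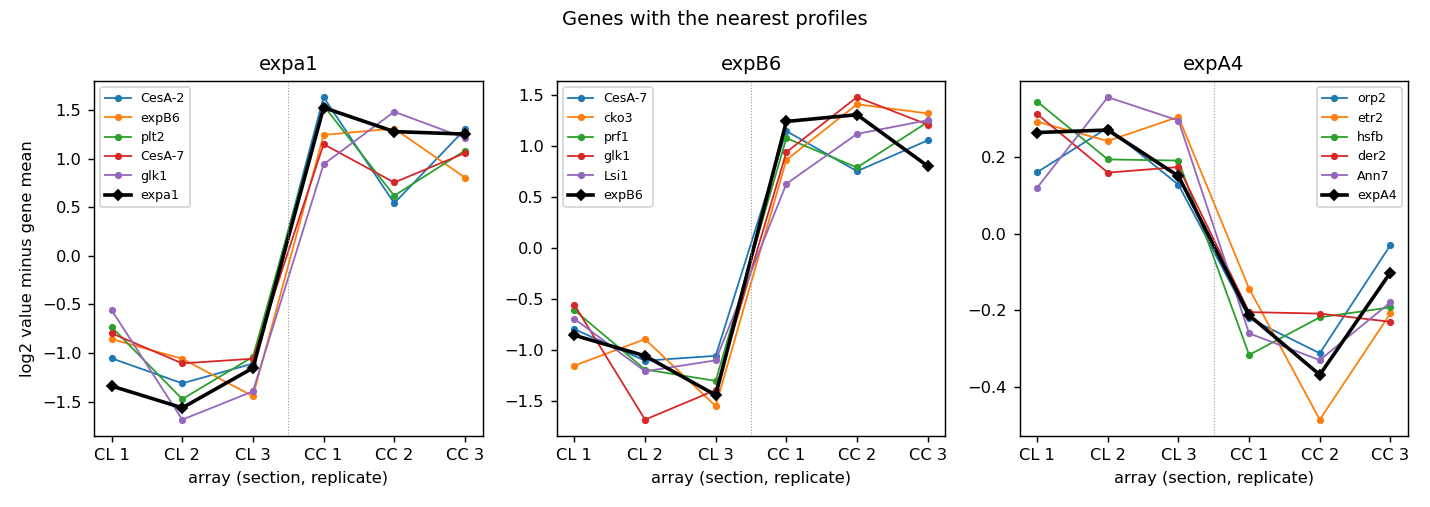
Log2 value minus the gene's mean over 6 arrays, for expa1, expB6 and expA4 (black) and the 5 genes nearest to each (colours), CL arrays at the left and CC arrays at the right; the vertical scales differ. The genes near expa1 and expB6 lie low on the CL arrays and high on the CC arrays, while those near expA4 are higher in CL by 0.38 to 0.56.

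The other genes around wall growth were read from lists matched by symbol, and their counts stand beside the 19.9% of all 1108 genes that fell and the 18.7% that rose. At an unadjusted p under 0.05, 318 of the 1108 genes fell and 260 rose. Of 14 genes of cellulose synthesis and other wall polymers, 9 fell and 0 rose by limma (10 and 0 at an unadjusted p under 0.05), that is 64.3% that fell, with a median log2 difference of -0.86. CesA-2 changed by -2.32 (SE 0.26) and CesA-9 by -2.08 (SE 0.29), with limma adjusted p of 0.00255 and 0.0043. The member with the largest positive difference, RGP at 0.71, did not pass, except without CL replicate 2, where the list had 1 rise. The list of other wall enzymes and wall proteins held 4 genes, of which 1 fell and 0 rose by limma (2 and 0 at an unadjusted p under 0.05), a share of falls of 25% that is near that of all genes. That fall, of xyl1 by 0.36 (limma adjusted p = 0.0481), was lost without CL replicate 1, CL replicate 3, CC replicate 2 or CC replicate 3, with adjusted p up to 0.158. The gene xet1, whose product acts on xyloglucan, read 10.71, 11.97 and 11.26 in CL, against 11.42, 11.78 and 11.87 in CC, so its sections overlapped.

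Cytoskeleton genes, whose microtubules guide cellulose deposition, showed 14 falls and 0 rises by limma among 27 (17 and 0 at an unadjusted p under 0.05). That is 51.9% that fell, against 19.9% of all genes, with a median of -0.36. The falls numbered 9 with replicate number as a block and 10 to 14 with 1 array left out. Over all probe sets they numbered 850 and 1082 to 2865 in those fits. The alpha-tubulin gene tua5 changed by -2.10 (SE 0.28, limma adjusted p = 0.00394) and prf1 by -2.07 (SE 0.20, limma adjusted p = 0.00203). Of 25 water channel and proton pump genes, 11 fell (44%) and 1 rose (4%), with a median of -0.37. That count of falls was 7 without CL replicate 2 and 5 without CL replicate 3, CC replicate 2 or CC replicate 3. Over all 17555 probe sets, the falls in those fits numbered 1484, 1082, 1371 and 1669, in that order, against 2668 with every array. The plasma membrane aquaporin gene pip (NCBI gene 542014, also PIP1-5) changed by -1.92 (SE 0.27, limma adjusted p = 0.0043) and PIP2-4 by -1.46 (SE 0.19, limma adjusted p = 0.00358). PIP1-3 was the rise, at 0.51 (limma adjusted p = 0.011, and 0.0529 without CL replicate 3). Among the proton pump genes, vpp1 changed by -0.60 (limma adjusted p = 0.00575), while vpp3 did not pass (0.08, SE 0.08). The plasma membrane proton pump genes, which acidify the wall and so bear on expansin activity, did not pass and had no settled direction. The log2 difference of mha1 was 0.22 (SE 0.14), 0.10 to 0.36 with 1 array left out and -0.0034 over the mean of its probe sets. That of mha4 was 0.24 (SE 0.32), -0.09 without CL replicate 1 and 0.55 without CL replicate 2.

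Of 10 genes matched to the growth hormone list, 4 fell (40%) and 2 rose (20%), beside 19.9% and 18.7% of all genes. cko3, whose product breaks down cytokinin, changed by -2.40 (SE 0.21, limma adjusted p = 0.0016), and an1, of gibberellin synthesis, by -1.02 (SE 0.16, limma adjusted p = 0.00621). The rises were those of an2 at 2.13 (SE 0.48), a member by symbol whose product serves defence diterpenoids in maize and not a growth hormone, and of the auxin-binding gene Aux311 (also abp1) at 0.72 (SE 0.12). The count of falls was 2 without CL replicate 2 or CC replicate 2, and that of rises 1 without CL replicate 3 or CC replicate 3, where an2 missed the threshold. The cell division list had 4 rises (28.6%, beside 18.7% of all genes) and 0 falls by limma among 14 genes. At an unadjusted p under 0.05 the list had 4 rises and 1 fall, beside 260 and 318 of all 1108 genes. With array weights it had 4 rises and 4 falls. Members that rose included cycD2, a D-type cyclin, at 0.73 (SE 0.10, limma adjusted p = 0.00372) and CDC5 at 0.51 (limma adjusted p = 0.0481), a member by its symbol alone. The rises numbered 1 without CL replicate 2 and 2 without CL replicate 3 or CC replicate 3, and the falls 2 without CC replicate 1 and 1 without CC replicate 3. CDC5 missed the threshold without CL replicate 2, CL replicate 3, CC replicate 2 or CC replicate 3.

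**Figure D5:**
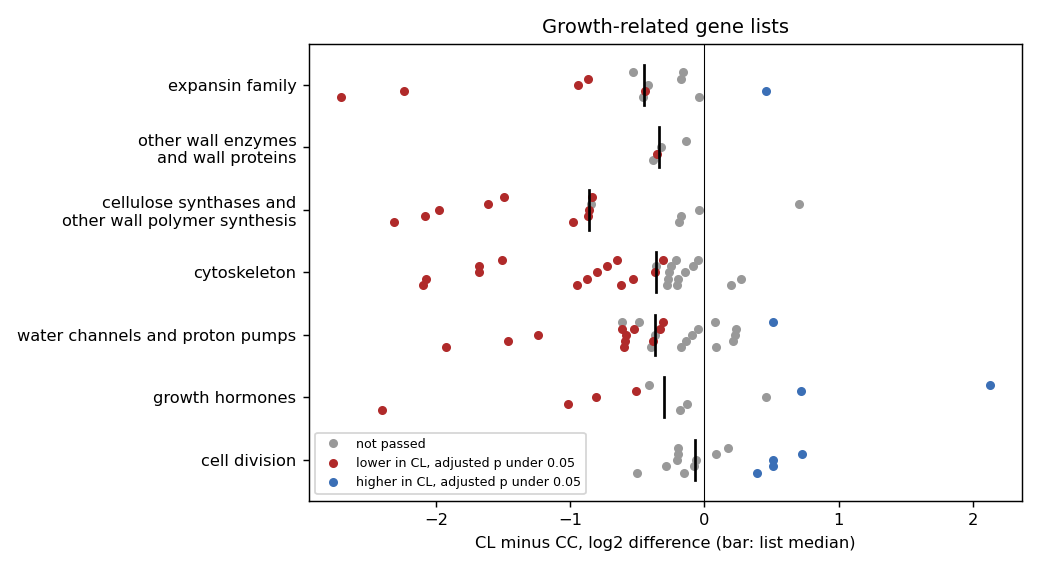
Log2 difference, CL minus CC, of each gene of 7 lists, with the list median as a black bar; red and blue mark genes lower and higher in CL at an adjusted p under 0.05. Medians run from -0.86 for cellulose and other wall polymer synthesis to -0.07 for cell division.

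Markers of the leaf's cell types give the tissue beside these values. The bright mesophyll and bundle sheath genes, which define photosynthetic maize leaf, were high in both sections. The mean log2 value of 4 mesophyll genes was 12.04 to 12.07 in CL and 11.78 to 11.90 in CC, and that of 3 bundle sheath genes 12.59 to 12.64 in CL and 12.72 to 12.77 in CC. In these lists ppt1 rose, by 0.75, and rca1 fell. The other mesophyll genes mdh6, pep1 and pdk1 changed by -0.05, 0.05 and 0.05. The mesophyll genes lay between percentiles 78.9 and 99.9 of probe set means and the bundle sheath genes between 99.1 and 99.9. Whether values so near the top of the arrays can show a difference was not tested. Of 3 epidermis and wax markers 2 fell, beside 19.9% of all genes, and gl8 did not pass (-0.11, SE 0.21), with overlapping sections. Their mean log2 value was 5.69 to 5.97 in CL and 6.36 to 6.88 in CC, with gl1, of wax synthesis, at -1.73 (SE 0.20, limma adjusted p = 0.00285). Among 2 vascular markers, whose mean log2 value was 8.85 to 9.07 in CL and 8.97 to 9.40 in CC, sut1, a sucrose transporter, changed by -0.87 (limma adjusted p = 0.0256), while sus1, a sucrose synthase, changed by 0.33 (limma adjusted p = 0.482) with overlapping sections. The call of sut1 was lost without CL replicate 2, CL replicate 3, CC replicate 2 or CC replicate 3. The part of cell type composition in the expansin values was not tested.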

How the data were processed

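The deposited log2 values were made by the authors with RMA. The submitters' processing notes name RMA, limma and Affymetrix Expression Console, with versions not given in the sources used here. Per the labels' protocols, 250 ng of total RNA were labelled for a 3' expression array. The table held 17555 probe sets and 6 arrays with 0 missing values and 0 unused columns. Gene names came from GEO's platform annotation, which is old, and were updated through gene IDs where the RefSeq table holds them (1060 of 1108 genes).

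From these values, limma 3.58.1 in R 4.3.3 fitted CL minus CC by section, with empirical Bayes, no block and no filter. Centred profiles and exact permutation tests were computed in Python 3.11.15. On simulated data with 17555 probe sets and 200 changed, in 5 runs, the fit recovered 22% of log2 changes with size 0.5, 92% of those with size 1 and 98.8% of those with size 2. In the data 31.1% of probe sets were called. The adjusted threshold depends on the share changed, so these rates need not hold there, and no simulation with such a share was run.

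The genes and the lists were chosen with earlier results of these data known. Lists were matched by symbol pattern, and 5 matches that are not of the theme by name were left out. Named genes were all expansins, the 5 nearest profiles of each of the 3 genes and, per list, the 2 largest called changes in each direction. RGP, xet1, mha1, mha4, vpp1, vpp3 and the markers were added after their values were seen. Alternatives were a replicate block, trended or robust variances, median centring, a further quantile normalization, filters on dim probe sets, array weights, averaging the probe sets of 1 gene and each array left out. No sample was left out, and no protein or promoter sequence was used here.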

Additional observations from a re-analysis of the deposited data

How the results depend on the processing

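The falls of expa1 and expB6 kept their direction and passed in all 14 alternatives that could be run, with log2 differences of -2.80 to -2.53 and -2.57 to -2.08 and limma adjusted p up to 0.0132. With the dimmest 50% of probe sets left out, none of the 12 expansin genes was tested. The rise of expA4 kept its sign in 14 alternatives and missed the threshold in 4: the replicate block (0.46, adjusted p = 0.0749), the mean of its probe sets (0.075, adjusted p = 0.482) and without CL replicate 2 or CC replicate 2 (0.39 to 0.52 over the 6 arrays left out in turn). The deviations of same-numbered samples from their section means correlated at -0.54, -0.35 and -0.39, so the replicate numbers showed no pairing by this measure. With 3 arrays per section it cannot tell whether same-numbered samples came from the same leaf. The block gave 1020 higher and 850 lower probe sets in CL, against 2789 and 2668 without it. The counts were 4388 and 4940 with array weights, 1656 lower without the dimmest 50%, and 1308 to 2818 higher and 1082 to 2865 lower with 1 array left out. The expansin family had 0 rises under the block and with the mean of probe sets, and 0 to 1 with 1 array left out. It had 8 falls under median centring and with array weights, and 4 to 8 with 1 array left out. Cell division genes had 1 rise under the block. Median centring put 42.8% of the called probe sets higher in CL, against 51.1%. The differences between the 3 genes kept their sign in 9 alternatives added after the data were seen. Why these counts moved was not tested. Without scanner files, signal over background could not be set beside the dim expansins.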
